A study of Mus musculus and Rattus norvegicus with 37 samples.

Results

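The transcripts of 9 genes of citrate transport and citrate metabolism were followed in the livers of 21 mice and 16 rats. They were taken by gene symbol: the plasma membrane carriers Slc13a2, Slc13a3 and Slc13a5, the mitochondrial carriers Slc25a1 and Slc25a10, and the enzymes Cs, Aco1, Idh1 and Idh2. All 9 were found, among 47929 named genes in the mouse tables and 28026 in the rat tables. Slc13a2 was selected on its fall after LNA29 treatment, so its values under LNA29 are given as a description with no test, and counts of members that passed a test cover the other 8 genes. Cs and Idh2 encode mitochondrial enzymes, so the set is wider than the cytosol.

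LNA29 stands for locked nucleic acid (LNA) oligonucleotides that block the miR-29 family of small RNAs, injected once under the skin at 20 mg/kg each, and livers of fed mice were taken on day 7. The mice were C57BL/6J. The WT/Floxed group pools WT mice of 9 to 11 weeks with floxed mice of 15 to 20 weeks and holds 8 LNA29-treated animals (4 WT and 4 floxed) and 5 given saline (3 WT and 2 floxed), after the authors set aside 1 floxed mouse. The mice labelled L-Sirt1 KO, a liver-specific Sirt1 knockout of 15 to 20 weeks, comprise 4 given LNA29 and 4 given saline. The Cre line behind the knockout was not given in the sources used here. The rats were 5.5-month-old Zucker Fatty rats (ZFR), which carry a mutated leptin receptor, and Zucker Lean rats (ZLR), 4 of each, and 3-month-old ZFR injected daily for 7 days with BT2 at 20 mg/kg or with vehicle, 4 of each. BT2 inhibits the kinase that switches off branched-chain keto acid dehydrogenase. All mice were female and all rats male.

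Citrate is made in mitochondria from acetyl-CoA and oxaloacetate. It leaves through a carrier of the inner membrane, and in the cytosol ATP citrate lyase (Acly) splits it into the acetyl-CoA from which fatty acids and cholesterol are built. Citrate can also be turned by aconitase into isocitrate, which the NADP-dependent isocitrate dehydrogenases oxidize to make NADPH. Hepatocytes take up further citrate from the blood through sodium-coupled carriers.

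The libraries from mice held an estimated 42.6 to 78.0 M reads and those from rats 0.188 to 58.5 M. Of the 16 rat libraries, 6 were under 1 M reads, and 1 read was worth up to 10.5 normalized counts. The ZLR replicates 3 and 4, ZFR vehicle replicate 4 and ZFR BT2 replicate 4 were under 0.5 M reads. Sirt1 was not lower in the libraries labelled L-Sirt1 KO than in the others (534.6 to 616.5 against 492.7 to 699.1 normalized counts). The tables were normalized separately, however, and a deletion of part of the gene need not lower its total count. The paper compared hepatic Sirt1 between these genotypes by quantitative PCR, which the counts here do not replace. The liver identity of the samples was plain, with summed normalized counts of hepatocyte markers (4 in mice, 5 in rats) between 4133500 and 7253380 in mice and between 256774 and 346135 in rats.

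The miR-29 sequences are shown because LNA29 was designed against them, with the seed (bases 2 to 8) in capitals. RefSeq (GRCm38.p6) places 3 mature forms at 4 loci, and all share 1 seed.
miR-29a-3p: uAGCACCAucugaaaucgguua
miR-29b-3p: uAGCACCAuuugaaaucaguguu
miR-29c-3p: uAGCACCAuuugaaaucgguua
A match to this seed reads TGGTGCT in a transcript. In the GENCODE vM21 annotation it lies in the longest 3′ untranslated region of 2 of the 9 members, Slc13a5 and Aco1, and in 13.04% of 20987 protein-coding genes. The matches, with 11 bases on either side and the 7 matching bases in capitals, are at base 87 of 1516 in Slc13a5 and base 28 of 671 in Aco1.
Slc13a5: gcacagagcacTGGTGCTcacactctagt
Aco1: agacccgcactTGGTGCTagacccaatga
Slc13a2, Cs, Idh1 and Slc25a10, the members that were lowest relative to saline after LNA29 in WT/Floxed mice, had no match to TGGTGCT in regions of 601, 1347, 849 and 1012 bases.

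In the mouse genome (GRCm38, GENCODE vM21) Slc13a2 lies on the minus strand of chr11:78397087-78422217 and Slc13a5 on the minus strand of chr11:72241989-72267222, with Slc13a3 on the minus strand of chr2:165405028-165473230. The carrier genes Slc25a1 and Slc25a10 lie at chr16:17925223-17928219 (minus) and chr11:120491840-120499187 (plus). The enzyme genes lie at chr10:128337734-128362479 (Cs, plus), chr4:40143081-40198338 (Aco1, plus), chr1:65158616-65186500 (Idh1, minus) and chr7:80094846-80115392 (Idh2, minus). The span of the antisense gene Slc13a2os overlaps that of Slc13a2 by 8571 bases, introns included, where the exons of Slc13a2 total 2412 bases. Reads from shared exon bases cannot be told apart if strand was not used in counting, and the shared exon length was not measured. Slc13a2os was listed at 0 to 11.4 normalized counts in the 21 mouse libraries, below Slc13a2 in each group. The spans of Slc13a3, Slc13a5, Slc25a10, Cs and Idh2 also overlap another gene.

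The start sites of the members that were lower after LNA29 in WT/Floxed mice, with 250 bases before and 50 after, are printed from RefSeq (GRCm38.p6) with motif matches in capitals. For Idh1 the upstream one of its start sites is shown. The motifs searched on both strands were the CCAAT box (spelled CCAAT), the GC box (spelled GGGCGG), the E-box (spelled CACGTG), the TATA box (spelled TATAAA) and a nuclear receptor half-site (spelled AGGTCA). None of these contains another.
Slc13a2 (chr11:78422185-78422484, minus strand): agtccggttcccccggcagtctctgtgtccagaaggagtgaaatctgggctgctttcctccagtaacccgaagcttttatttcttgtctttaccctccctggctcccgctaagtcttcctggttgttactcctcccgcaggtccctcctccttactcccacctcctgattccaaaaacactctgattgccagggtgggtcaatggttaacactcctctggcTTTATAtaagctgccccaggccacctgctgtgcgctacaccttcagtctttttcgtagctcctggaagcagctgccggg
Cs (chr10:128337477-128337776, plus strand): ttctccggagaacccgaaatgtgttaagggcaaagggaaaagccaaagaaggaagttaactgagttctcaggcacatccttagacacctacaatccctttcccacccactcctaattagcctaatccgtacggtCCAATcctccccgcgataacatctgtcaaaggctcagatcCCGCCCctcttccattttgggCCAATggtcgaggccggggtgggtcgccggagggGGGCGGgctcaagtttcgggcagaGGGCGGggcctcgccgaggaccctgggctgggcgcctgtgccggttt
Idh1 (chr1:65186430-65186729, minus strand): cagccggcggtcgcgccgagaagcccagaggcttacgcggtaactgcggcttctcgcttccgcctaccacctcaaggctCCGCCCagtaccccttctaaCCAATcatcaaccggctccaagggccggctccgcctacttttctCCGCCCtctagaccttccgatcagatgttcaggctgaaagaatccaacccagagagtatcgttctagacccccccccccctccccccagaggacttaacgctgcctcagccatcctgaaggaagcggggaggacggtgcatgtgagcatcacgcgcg
The Slc13a2 window matches the spelling TATAAA on the opposite strand, and on the printed strand the same place reads TATAtaag. Variant spellings of the TATA box were not searched, so its orientation is not settled by this match. A match to TATAAA on either strand is present in 13.6% of 32851 mouse promoters. The Slc13a2 window holds neither the CCAAT box nor the GC box. The Cs window holds the CCAAT box 2 times and the GC box 3 times, and the Idh1 window holds the CCAAT box once and the GC box 2 times. Of all promoters, 37.4% hold the CCAAT box and 35.7% the GC box. Over all 9 members and their 11 promoters, 8 genes have a GC box, 6 the CCAAT box, 2 the E-box, which 7.15% of promoters hold, 1 the TATA box, and 0 the half-site, which 16.3% hold. The Slc13a2 window is also the poorest of the members in CpG, with 8 against 14 to 30 in the others and a median of 7 over all promoters.

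Scaled to the length of their exons, the members fell into 3 tiers in mouse liver. In WT/Floxed saline livers Idh1, the cytosolic isocitrate dehydrogenase, was at 11290 ± 879 normalized counts per kb (SD, n = 5) and Slc25a1, which carries citrate out of mitochondria, at 6841 ± 507. Slc25a10, which exchanges malate or succinate for phosphate, was at 5204 ± 558 and Idh2, the mitochondrial NADP-dependent enzyme, at 5004 ± 608 normalized counts per kb, and the ranges of this pair overlapped. Aco1, the cytosolic aconitase that also acts as an iron sensor, was at 3507 ± 275 and Cs, citrate synthase, at 2881 ± 89.8. The plasma membrane carriers were lower on the same per-kb scale. Slc13a3, a dicarboxylate carrier, was at 511 ± 100, Slc13a2, best known from kidney and intestine, at 54.8 ± 15.7, and Slc13a5, the citrate carrier of hepatocytes, at 28.7 ± 5.98. Apart from Slc25a10 with Idh2, and Slc13a2 with Slc13a5, neighbours in this order did not overlap between libraries of this group. In the WT/Floxed LNA29 livers Slc13a2 (18.1 ± 7.78 normalized counts per kb, n = 8) stood below Slc13a5 (35.1 ± 12.7), again with overlapping libraries.

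**Figure D1:**
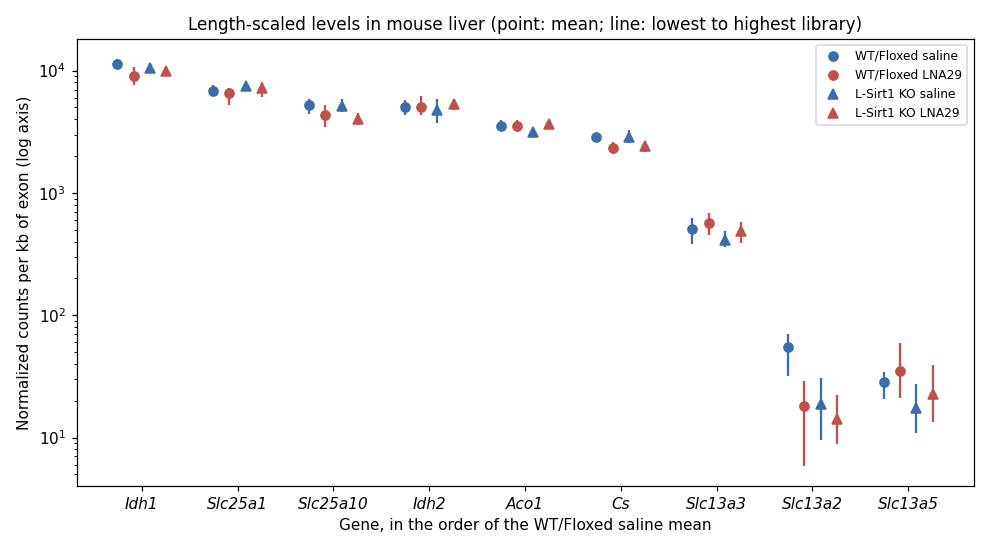
Normalized counts per kb of exon (log axis) of the 9 genes in the 4 mouse groups, with points at the mean and lines from the lowest to the highest library. The enzymes and mitochondrial carriers sit at 2085 or more in every library, Slc13a3 between 363.9 and 682.8, and Slc13a2 and Slc13a5 at no more than 70.7.

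After LNA29 treatment of WT/Floxed mice, transcripts of citrate synthase and of cytosolic isocitrate dehydrogenase were lower. The remaining enzymes and carriers tested did not pass. Slc13a2, which was chosen for its fall in this contrast and was not tested, had the widest shift. Of the 8 members tested, 2 passed the mouse criteria (p under 0.05, adjusted p under 0.2, mean above 50 and a fold change above 1.2), both lower. Over all 15811 genes tested 4.35% passed, and 1.93% passed and were lower. The groups of 1 of the 8 members did not overlap, compared with 1.51% of all genes. The median log2 fold change of the 8 was -0.03, against 0.00 over all genes tested. Whether fewer cells of a type or less RNA per cell underlies a lower value cannot be told apart in whole liver.

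Cs, whose enzyme condenses acetyl-CoA and oxaloacetate into citrate, ranged from 6101 to 7595 normalized counts over the 8 LNA29 livers with a median of 6867. The 5 saline livers read 8104, 8271, 8388, 8663 and 8728. Every LNA29 liver was below every saline liver. The log2 fold change was -0.30 (SE 0.06, adjusted p = 0.0267, limma with Benjamini-Hochberg adjustment), or 0.812 times the saline mean. Within the 3 flow cells (3 LNA29 against 1 saline library, 3 against 2, and 2 against 2) the differences of the Cs means were -0.24, -0.28 and -0.40 on the log2 scale. They were -0.26 in WT mice alone, where the call was lost (adjusted p = 0.394), and -0.35 in floxed mice alone (adjusted p = 0.192). The Cs call was also lost with the replicate number as a block (-0.26, adjusted p = 0.543), as was that of Idh1 (-0.27, adjusted p = 0.652).

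Idh1, which makes cytosolic NADPH from isocitrate, ranged from 18748 to 26357 normalized counts after LNA29 with a median of 22548. The saline livers read 25344, 26214, 28596, 28938 and 30736. The groups overlapped through 1 floxed LNA29 liver, replicate 5 at 26357, which was above the lowest 2 saline livers. The log2 fold change was -0.33 (SE 0.09, adjusted p = 0.0861, limma). Within flow cells the Idh1 difference was -0.31, -0.33 and -0.41. It was -0.46 in WT mice alone (adjusted p = 0.229) and -0.16 in floxed mice alone (adjusted p = 0.553), and the call was also lost without WT/Floxed saline replicate 4 (-0.30, adjusted p = 0.202).

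Slc25a10 was between 7055 and 10579 normalized counts after LNA29 with a median of 8713, and the saline livers read 8893, 9965, 10903, 11046 and 11829. The groups overlapped. Its log2 fold change of -0.28 (SE 0.10, adjusted p = 0.246, limma) did not pass. It passed without WT/Floxed LNA29 replicate 1 (-0.32, adjusted p = 0.136), LNA29 replicate 2 (-0.32, adjusted p = 0.162) or saline replicate 2 (-0.34, adjusted p = 0.190), and with sample quality weights (-0.34, adjusted p = 0.0870). Within flow cells the values were -0.30, 0.00 and -0.54, so 1 of the 3 showed no difference. Slc25a1, Aco1 and Idh2 had log2 fold changes of -0.06, 0.01 and 0.02, with 95% intervals from -0.24 to 0.11, from -0.13 to 0.15 and from -0.20 to 0.23. Neither Slc13a3 (0.15, interval -0.13 to 0.43) nor Slc13a5 (0.24, interval -0.27 to 0.74) passed. Slc13a5 and Aco1 are the 2 members whose transcripts hold the seed match printed above.

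Slc13a2, which was chosen by this contrast, read 14.2 to 69.6 normalized counts in the 8 LNA29 livers, with a median of 39.7. The saline livers read 77.4, 119, 129, 165 and 171. The groups did not overlap, and the closest libraries were 69.6 and 77.4. These levels rest on 15 to 65 estimated reads a library after LNA29 and 82 to 182 after saline. The mean was 0.330 times that of saline, a log2 fold change of -1.66 on the log2(normalized count + 1) scale. Within flow cells the difference was -1.93, -1.46 and -2.01, and it was -1.58 in WT and -1.69 in floxed mice. Kidney tubule markers were close to absent. Of the 9 in the list, 8 had a mean under 10, the sum over the list was 12.01 to 42.5 after LNA29 and 3.85 to 27.0 after saline, and Slc22a6 and Slc12a1 were at 0 in every library. The 6 intestinal epithelium markers summed to at most 4.46, with Cdx1 at 0 throughout.

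In the mice labelled L-Sirt1 KO, 0 of 8 members passed the same criteria, where 1.87% of 15885 genes did. At an unadjusted p under 0.05, 2 of the 8 (Slc25a10 and Aco1) passed, against 11.2% of all genes. The groups of the same 2 genes did not overlap, compared with 6.95% of all genes. The median log2 fold change of the 8 was 0.06.

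Slc25a10 read 7213, 7564, 8448 and 9119 normalized counts after LNA29 and 9247, 9737, 10869 and 11799 after saline in these mice. All LNA29 livers were lower, by a narrow margin at the edge. The log2 fold change was -0.36 (SE 0.11, adjusted p = 0.247, limma), and within flow cells -0.43 (1 LNA29 against 1 saline library), -0.21 (2 against 1) and -0.31 (1 against 2). It passed without L-Sirt1 KO saline replicate 1 (-0.42, adjusted p = 0.177) and with sample quality weights (-0.36, adjusted p = 0.150). Aco1 read 13540, 13604, 13851 and 14799 after LNA29 and 10771, 11964, 12465 and 13123 after saline. All LNA29 livers were higher, by 0.21 on the log2 scale (SE 0.08, adjusted p = 0.383, limma).

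Cs in these mice read 6291, 7009, 7415 and 7712 normalized counts after LNA29 and 7507, 7567, 8608 and 9630 after saline. The groups overlapped, and the log2 fold change of -0.23 (95% interval -0.46 to 0.01) did not pass. Idh1 differed by -0.06 (interval -0.25 to 0.13). Slc13a2 read 21.5, 29.8, 33.3 and 53.2 after LNA29 and 22.8, 30.7, 54.9 and 74.2 after saline. The groups overlapped, and 2 saline livers were above every LNA29 liver. The log2 fold change was -0.32, and -0.60 to -0.05 when single libraries were left out (without saline replicates 4 and 1). Within flow cells the Slc13a2 difference was -0.04 (1 LNA29 against 1 saline library), -1.44 (2 against 1) and 0.57 (1 against 2). The Slc13a2 values of the saline livers of these mice all lay under the lowest WT/Floxed saline liver (77.4), in a table that was normalized separately. The WT/Floxed saline values are part of the contrast by which Slc13a2 was chosen. A difference between the saline groups was not tested, and the share of all genes apart in this way was not counted.

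**Figure D2:**
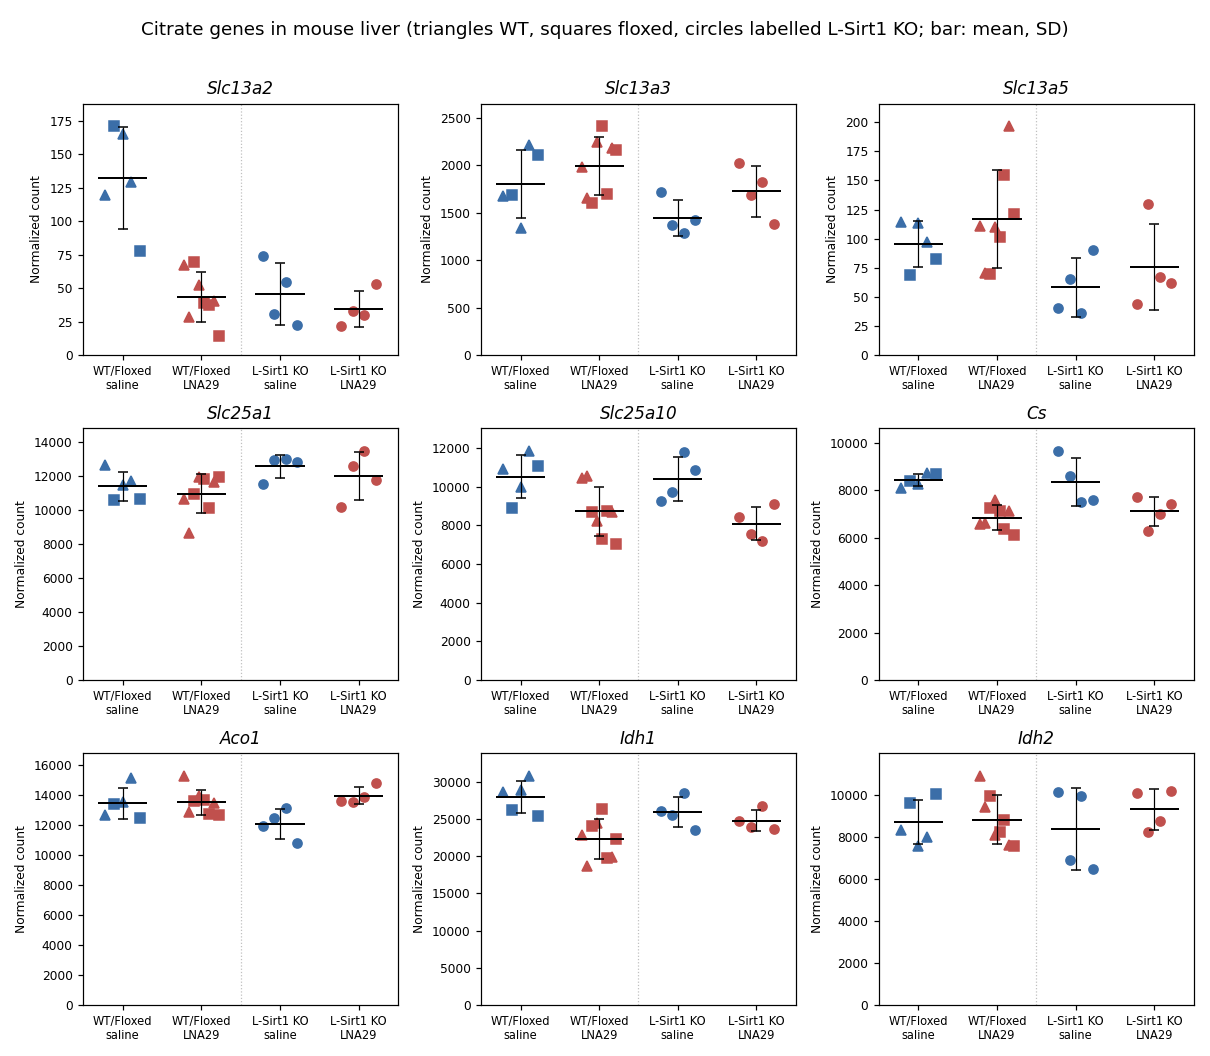
Normalized counts of the 9 genes in each mouse liver by group, with a bar at the mean and whiskers of 1 SD. The Cs panel shows WT/Floxed LNA29 livers at 6101 to 7595 under saline livers at 8104 to 8728. The Slc13a2 panel shows WT/Floxed saline livers at 77.4 to 171 above LNA29 livers at 14.2 to 69.6, the contrast by which it was chosen. The 2 genotypes were normalized separately.

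Whether the members answered LNA29 differently in each genotype was tested with an interaction term. None of the 8 members passed at an adjusted p under 0.2, as did 0.0449% of 15601 genes. At an unadjusted p under 0.05, 1 of the 8 passed, against 9.14% of all genes. It was Idh1, whose log2 fold change was higher by 0.27 in the mice labelled L-Sirt1 KO (95% interval 0.00 to 0.53, adjusted p = 0.532, limma). Against the floxed mice alone, which are of the same age, the Idh1 difference was 0.10 (adjusted p = 0.851). The fold change of Cs was higher by 0.08 (interval -0.15 to 0.31) and that of Slc25a10 by -0.09 (interval -0.42 to 0.24). These intervals are wide enough that the responses of Cs and Slc25a10 were not shown to differ between genotypes.

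Genes of citrate cleavage and pyruvate cycling (Acly, Me1, Mdh1, Pcx, Mpc1 and Mpc2) were counted by the mouse criteria. Of these 6 genes, 1 passed in WT/Floxed mice and 0 in the mice labelled L-Sirt1 KO. The one that passed was Acly, at 6743 to 17309 normalized counts after LNA29 (median 9687) and 12636 to 23622 after saline (median 17989). Its log2 fold change was -0.78 (SE 0.21, adjusted p = 0.0925, limma) in WT/Floxed mice and -0.07 (SE 0.28, adjusted p = 0.943) in the mice labelled L-Sirt1 KO. The interaction with genotype is not given for Acly, and a pass in only 1 genotype does not show a difference between them.

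The 16 other TCA cycle enzymes gave 0 calls in both mouse comparisons. In WT/Floxed mice 2 of the 16 had a log2 fold change above 0 and their median was -0.13, and in the mice labelled L-Sirt1 KO 3 of 16 and -0.07. None of the other anion carriers passed among the 5 and 4 tested.

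Among the zonal markers, 3 of 8 periportal hepatocyte genes passed as lower in WT/Floxed mice and 0 of 9 pericentral ones. They were Gls2 (-0.67), Hal (-0.38) and Arg1 (-0.35 on the log2 scale). Of the 8 periportal genes 2 went the other way without passing, Pck1 (0.68) and Hsd17b13 (0.09). In the mice labelled L-Sirt1 KO 0 of 8 passed. Their part in the Cs and Idh1 differences was not tested. The summed periportal counts were 363607 to 591910 after LNA29 and 374694 to 616250 after saline in WT/Floxed mice. In the other marker lists of WT/Floxed mice 1 of 4 hepatocyte genes passed (Apoa1, 0.51), 1 of 5 endothelial genes (Lyve1, -0.51), and 0 of 5 cholangiocyte, stellate cell or macrophage genes. In the mice labelled L-Sirt1 KO, Lyve1 (-1.17) and 1 of 5 macrophage genes (Clec4f, -0.29) passed, and 0 of the hepatocyte, cholangiocyte and stellate cell genes.

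In rats, 7 of the 9 members had a mean of at least 10 normalized counts and were tested. Slc13a2 and Slc13a5 fell below it, with means of 1.25 and 3.25 in the ZFR and ZLR table, and Slc13a2 was 0 in 3 of 8 of those libraries. ZFR livers had more Slc25a10 than ZLR livers. Of the 7 tested, 1 passed an adjusted p under 0.05, against 4.25% of 8633 genes, and the groups of 3 of 7 did not overlap, against 14.5% of all genes.

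Slc25a10 read 433, 476, 495 and 518 normalized counts in ZFR and 263, 282, 314 and 334 in ZLR. Every ZFR liver was higher. The log2 fold change was 0.69 (SE 0.11, adjusted p = 0.00741, limma). The shallow ZLR replicates 3 and 4 gave 25 and 32 reads of Slc25a10, and without them it was 0.69 (adjusted p = 0.0122). That fit keeps ZLR replicates 1 and 2, on the other flow cell and at 56.4 and 46.1 M reads. ZFR replicates 2, 3 and 4 held 1.56, 0.952 and 1.24 M, so depth differed between the groups there. Within the flow cell of ZLR replicates 3 and 4 the difference was 0.71, and within the other it was 0.67.

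Slc25a1 read 469, 488, 499 and 511 in ZFR and 337, 365, 383 and 442 in ZLR. The groups were apart, but the log2 fold change of 0.37 (SE 0.11, adjusted p = 0.093, limma) did not pass. It passed without ZLR replicate 3 (0.44, adjusted p = 0.0375) and with precision weights from the estimated reads (0.40, adjusted p = 0.0386). Idh1 read 618, 676, 800 and 807 in ZFR and 820, 853, 856 and 881 in ZLR, again apart, and the difference was -0.24 on the log2 scale (SE 0.11, adjusted p = 0.289, limma). Within flow cells the Idh1 difference was -0.09 and -0.40. Slc13a3 differed by -1.36 (SE 0.50, adjusted p = 0.204, limma) with overlapping groups, and rested on 3 and 6 reads in the 2 shallow ZLR libraries. In ZFR replicates 2, 3 and 4 it rested on 9, 3 and 16 reads. The Slc13a3 difference was -1.06 without the 2 shallow ZLR libraries, which leaves these ZFR libraries in. It was -0.87 with precision weights and -0.55 with sample quality weights. Cs, Aco1 and Idh2 (0.26, 0.12 and -0.46) did not pass, and the Cs value was 0.05 without the 2 shallow ZLR libraries.

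Some genes of citrate cleavage and pyruvate cycling passed in ZFR. Acly read 3261 to 4159 normalized counts in ZFR and 795 to 1131 in ZLR, higher by 2.01 on the log2 scale (SE 0.13, adjusted p = 3.2e-05, limma). Of 6 genes of citrate cleavage and pyruvate cycling 2 passed, Acly and Me1, the cytosolic malic enzyme, which differed by 1.81. Among zonal markers 2 of 4 pericentral genes passed as lower, Oat (-1.41) and Cyp1a2 (-1.39). Of 7 periportal genes 2 passed as lower, Hal (-1.32) and Cps1 (-0.58), and 1 as higher, Arg1 (0.61). Of 5 hepatocyte markers 1 was called higher, Tf (0.44), and 2 lower, Apoh (-0.70) and Ttr (-0.43). Among 2 kidney tubule genes tested 1 passed, Slc22a8, with a log2 fold change of -1.46, and Lrp2 was at 0.08. Among 4 endothelial genes tested 1 passed, Stab2, which was higher by 1.16. Only 2 of these 4 were above 0, with Kdr at -0.31 and Lyve1 at -0.08. In the macrophage, stellate cell and cholangiocyte lists 0 genes passed, but 4 of 5, 3 of 4 and 2 of 3 tested were above 0. Without passing, Marco (2.10), Dcn (3.00, with a ZLR mean of 8.06), Reln (0.89) and Epcam (0.85) did not overlap between ZFR and ZLR. The part of these markers was not tested.

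BT2 against vehicle gave 0 calls among 8405 genes by limma, a share of 0%, and the smallest adjusted p was 0.0765. At an unadjusted p under 0.05 there were 332 genes, or 3.95%, and 1 of 7 members. With a pseudocount of 10, sample quality weights, the criteria used in mice or without the libraries under 0.5 M reads, 1 gene of the table passed, and no member did. The groups of 1 of 7 members did not overlap, against 2.96% of all genes. That was Slc25a10, which read 299, 376, 441 and 456 normalized counts with BT2 and 462, 471, 599 and 637 with vehicle. The log2 fold change was -0.47 (SE 0.17, adjusted p = 0.898, limma), and it was -0.29 without the 2 libraries under 0.5 M reads. In the remaining 6 members the log2 fold change lay between -0.24 (Cs) and 0.16 (Aco1), and each interval included 0. The Acly values with BT2 (1998 to 3590) and vehicle (3637 to 5457) did not overlap either, with a log2 fold change of -0.56 (adjusted p = 0.898).

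**Figure D3:**
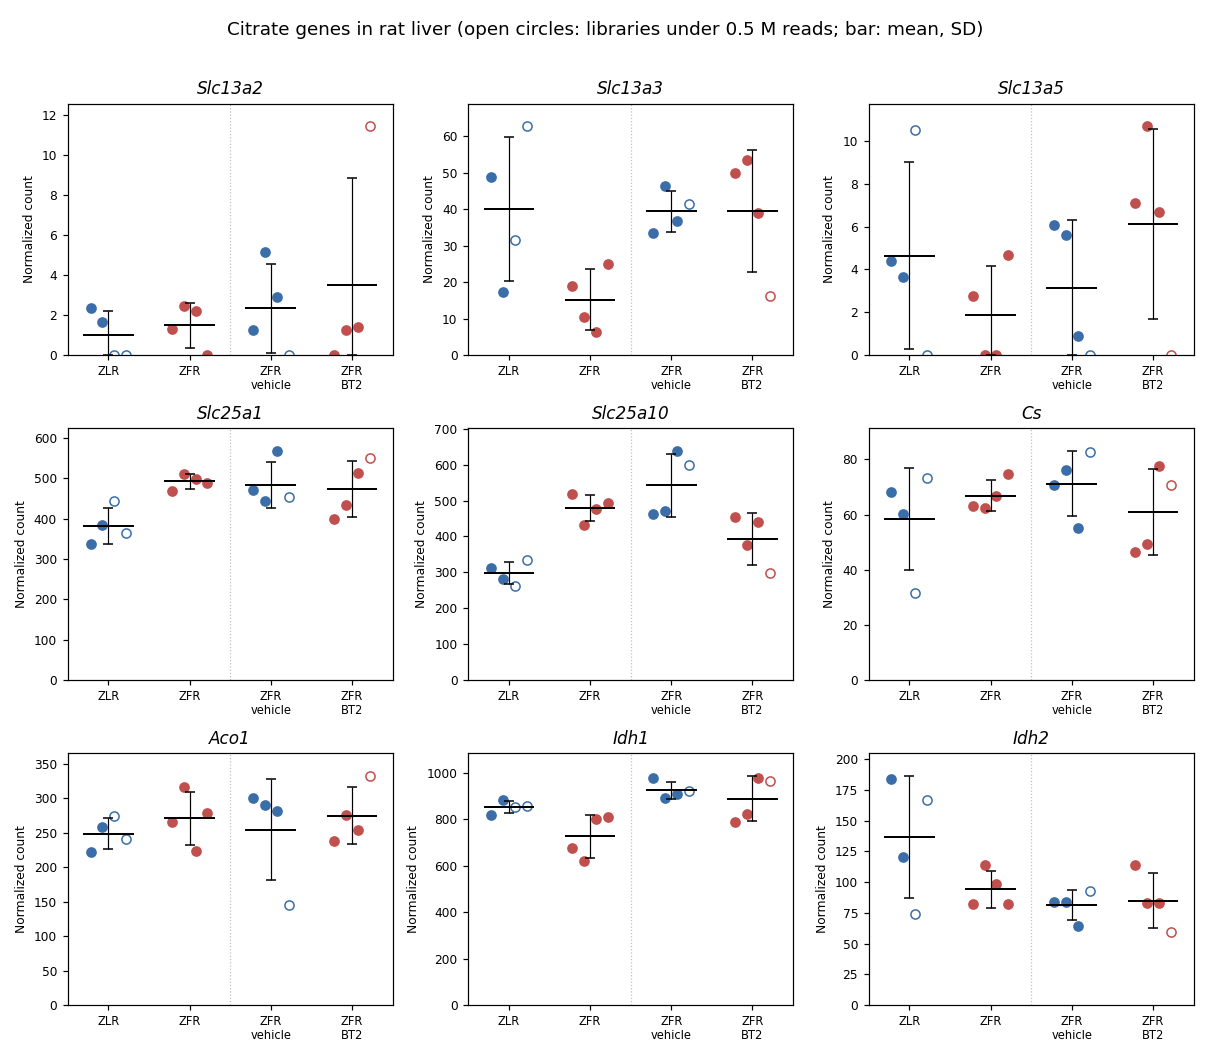
Normalized counts of the 9 genes in each rat liver by group, with a bar at the mean and whiskers of 1 SD, cut at 0. Open circles are libraries under 0.5 M reads. Slc25a10 sits at 433 to 518 in ZFR above 263 to 334 in ZLR, and at 299 to 456 with BT2 under 462 to 637 with vehicle.

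**Figure D4:**
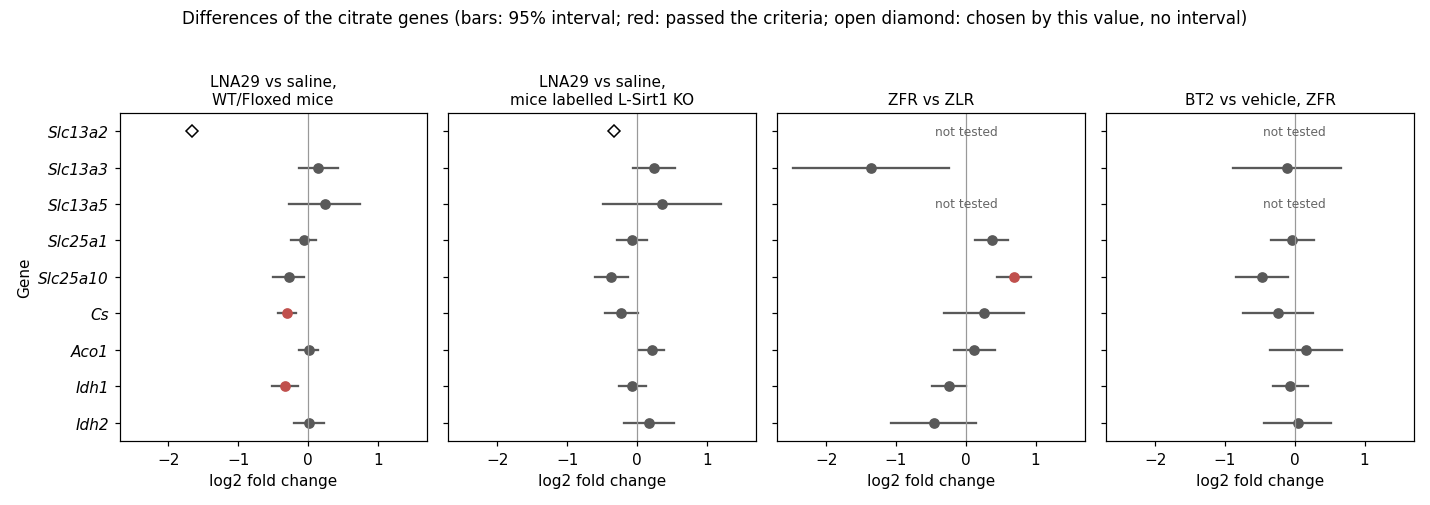
Log2 fold changes of the members in the 4 comparisons with 95% intervals. Red points passed the criteria (Cs at -0.30 and Idh1 at -0.33 in WT/Floxed mice, Slc25a10 at 0.69 in ZFR), and open diamonds mark Slc13a2 (-1.66 and -0.32), which has no test.

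Side by side, the log2 fold changes of Slc25a10 were -0.28 and -0.36 under LNA29, 0.69 in ZFR against ZLR and -0.47 under BT2, and it passed the criteria in 1 of the 4 comparisons. The comparisons were made in separately normalized tables and share no libraries.

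Across the 21 mouse libraries, deviations from the group means were compared between genes as a description, over libraries that share flow cells and depth. For Slc13a2, the 5 genes most alike of 12759 were Rnd2 (Pearson r = 0.864), Ethe1 (0.829), Aldh1a7 (0.823), Srgap3 (0.820) and Ass1 (0.816), and the 99th percentile over all genes was 0.604. For Slc13a5 they were Ralgps2 (0.825), Frmd6 (0.824), Cyp4a32 (0.816), Gle1 (0.806) and Ercc4 (0.796). Among the members themselves r lay between -0.74, for Slc13a5 with Idh2, and 0.63, for Slc13a2 with Aco1.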

How the data were processed

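Liver RNA-seq values of 37 animals in 4 tables were used, 21 mice and 16 rats. The authors prepared libraries with a polyA kit, sequenced single-end reads of 100 bases, aligned them with STAR to mm10 or rn6, estimated counts with Salmon and divided them by DESeq2 factors, table by table. The deposited values are therefore a normalized signal, not whole counts, since 69.3% to 75.8% of the low values in mice and 74.3% to 90.3% in rats were whole multiples of 1 read, so count models were not used. The value of 1 read was taken as the most frequent value above 0, and reads as the sum divided by it. Entries without a name or with a repeated name were left out. No column was left unmatched (0).

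Tests used limma 3.58.1 in R 4.3.3 with trended empirical Bayes on log2(normalized count + 1), for genes with a mean of at least 10, with Benjamini-Hochberg adjustment over all of them. Fold changes on this scale understate low genes. Animals are the replicates. The scripts were tested on simulated data. Sequences, promoters and positions were read with Python 3.11.15 and pandas 2.3.3, and figures drawn with matplotlib 3.10.9.

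The members and lists were chosen with earlier results of these data known. Named are all 9 members, Acly, list genes that passed (up to 3 a list), and the 5 genes most like Slc13a2 and Slc13a5 among those with a mean above 50. Marker lists are given by counts, apart from genes named beside a result. Other settings tried were no minimum mean, a pseudocount of 10, TMM scaling, sample quality weights, flow cell or background as a covariate, each background alone, the replicate number as a block, an adjusted p under 0.05 in mice, precision weights and the mouse criteria in rats, and each library left out. Leaving out rat libraries under 0.5 M reads was chosen after seeing the data. The list of cytosolic NADPH enzymes is not reported here.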

Additional observations from a re-analysis of the deposited data

Results flagged for a closer look

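Among 64 groups of values checked for a sample far from the others, 2 had one, and chance gives about 1 in 20. Slc25a1 read 11544 normalized counts in L-Sirt1 KO saline replicate 1, apart from the other 3 livers of that group at 12787 to 12991. Aco1 read 144.5 normalized counts in ZFR vehicle replicate 4, apart from the other 3 at 281.4 to 300.3, and this value rests on 14 reads.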

How the results depend on the processing

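In WT/Floxed mice Cs passed with 8 and Idh1 with 6 of 10 other settings, and the members that passed (2 of 8) came to 0 with a replicate block or WT mice alone and to 1 with floxed mice alone or an adjusted p under 0.05, and to 3 with sample quality weights. Genes passing (688) came to 396 without a minimum mean, 1308 with sample quality weights, 56 with the replicate block, 88 in WT mice alone and 206 at an adjusted p under 0.05. Members that did not pass and changed sign were Aco1 (-0.0202, quality weights), Slc13a5 (-0.0462, replicate block), Slc25a1 (0.0762) and Idh2 (-0.192, both in floxed mice alone). In mice labelled L-Sirt1 KO 1 member passed with quality weights, against 0, and the genes passing (297) came to 160 without a minimum mean, 804 with quality weights, 103 with flow cell as covariate, 145 with the replicate block and 37 at an adjusted p under 0.05. The Slc13a2 difference in these mice was 0.0455 with quality weights, against -0.32.

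In ZFR against ZLR the members passing (1 of 7) came to 4 with quality weights (Slc25a10, Slc25a1, Idh1 and Idh2), 2 with precision weights and 2 with the criteria used in mice. Genes passing (367) came to 241 without a minimum mean, 1169 with quality weights, 221 with the replicate block, 738 with precision weights and 707 with the criteria used in mice. For BT2 1 gene passed with a pseudocount of 10, quality weights, the criteria used in mice or without libraries under 0.5 M reads, and the signs of Slc13a3 (0.0878 with quality weights, 0.0390 with precision weights, 0.280 without those libraries) and Aco1 (-0.0874 with quality weights, -0.186 without those libraries) changed. The interaction of Slc13a5 was -0.149 with floxed mice alone. Leaving out libraries under 0.1 of the median depth removed 0 libraries and was not run.

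Leaving out each library gave 1 to 3 members and 381 to 1006 genes in WT/Floxed mice (406, 443 and 381 without LNA29 replicates 6, 7 and 8, and 451 without saline replicate 1), with Aco1 at -0.0193 to 0.0515 and Idh2 at -0.0334 to 0.0683. It gave 0 to 1 members, 77 to 426 genes (87, 77 and 85 without LNA29 replicates 3, 4 and 2, and 165 and 133 without saline replicates 2 and 4) and Slc25a1 at -0.130 to 0.00465 in mice labelled L-Sirt1 KO. In ZFR against ZLR it gave 1 to 2 members, 225 to 379 genes (234, 229, 225 and 235 without ZFR replicates 1, 2, 3 and 4) and Cs at -0.00839 to 0.386. For BT2 it gave 0 to 2 genes (1 without vehicle replicate 2 and 2 without BT2 replicate 3), Aco1 at -0.0920 to 0.258, Idh2 at -0.112 to 0.193, Slc13a3 at -0.296 to 0.255 and Slc25a1 at -0.110 to 0.0438. The interaction lay between -0.175 and 0.362 for Slc13a5 and between -0.0684 and 0.0661 for Slc25a1. The cause of these changes was not tested. Deviations of same-numbered libraries correlated at -0.349 to 0.282, with 8 of 17 pairs over 0.1. BT2 and vehicle had 3 of 4 pairs over 0.1, each correlating best with its own number, but no comparison had every pair over 0.1, so the numbers were not taken to pair the animals. Depth limits Slc13a2, Slc13a5 and Slc13a3 in rats, which rest on a few reads in the shallow libraries.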
